A study of Homo sapiens with 18 samples.

Results

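Keratin transcripts were followed in MDA-MB-231 cells, a triple-negative (basal B) human breast adenocarcinoma line, treated with the topoisomerase II poison doxorubicin with or without extra ZMYND8, a chromatin reader protein. The 10 genes described are KRT5, KRT7, KRT8, KRT9, KRT14, KRT15, KRT17, KRT18, KRT19 and KRT81, taken by name from the 60603 genes of the deposited count tables. They are 10 of the 54 keratin genes looked up, and each has a row in both tables, though with 0 counts in some conditions. The list was chosen by measured counts of these same libraries, among them the KRT17 counts of transiently transfected cells and the KRT9 counts of GFP cells after 48 h of doxorubicin. Those values are therefore given as descriptions with no test.

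The study used RNA sequencing of poly(A) RNA from 18 libraries, with 2 replicates per condition, described as biological for the inducible experiment. In the transient experiment, control cells were compared with cells under 0.6 µM doxorubicin over 48 h and with cells that, by their labels, carried transfected FLAG-ZMYND8 under the same drug treatment. In the inducible experiment, cells carrying a doxycycline-driven pInducer20 lentivirus for GFP or for FLAG-ZMYND8, under neomycin/G418 selection, all received 250 ng/mL doxycycline and were harvested without doxorubicin or after 6 h or 48 h of 0.6 µM doxorubicin. All groups share the parental line, and there was 1 stable line per construct, so that an effect of ZMYND8 and any other difference between the lines cannot be told apart.

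Keratins form the intermediate filaments of epithelial cells. An acidic type I chain pairs with a basic type II chain, and the genes lie in a pair of clusters, type I on chromosome 17 (with KRT18 as the exception on chromosome 12) and type II on chromosome 12. KRT8 with KRT18 is the pair of simple epithelia, KRT7 and KRT19 accompany it in ductal epithelia, KRT5 with KRT14 is the pair of the basal layer of stratified epithelia, and KRT17 is a keratin of hair follicles and other appendages that appears in wounded epidermis. KRT15 marks basal cells and the hair follicle bulge, KRT9 the suprabasal layers of palm and sole, and KRT81 is a hair cortex keratin.

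Library sizes were 5729294 to 5972396 counts for 5 of the 6 transient libraries and 24713822 for doxorubicin replicate 2, and 18300628 to 23724398 counts for the 12 inducible libraries. ZMYND8 itself was at 924 ± 3.75 CPM (SD, n = 2) in the ZMYND8 line against 208.5 ± 0.779 in the GFP line. In the transient experiment the ZMYND8 plus doxorubicin libraries, as labelled, held 160 and 125 CPM of it, below the 219 and 198 CPM of control cells. The extra ZMYND8 named by the label was thus not seen against control. Control cells had no doxorubicin, so drug and transgene cannot be told apart in this comparison. Doxorubicin replicate 2 and labelled ZMYND8 plus doxorubicin replicate 2 were far closer to each other (1.39 chi-square units for each degree of freedom, across genes) than any other transient pair (9.71 to 55.6). The line was recognisable by vimentin (4481 ± 18.3 CPM in GFP cells) together with ESR1 and PGR, whose highest group means were 0.665 and 0.755 CPM.

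KRT9, KRT14, KRT16 and KRT17 lie close together on the minus strand of chromosome 17 (hg38), at 41565836 to 41572059 for KRT9, 41582279 to 41586895 for KRT14, 41609778 to 41615899 for KRT16 and 41619442 to 41624842 for KRT17. KRT14, KRT16 and KRT17 are alike in coding sequence, and this bears on how reads can be assigned. The coding sequences of KRT17 and KRT14 were identical at 85.8% of 1296 aligned bases, and those of KRT17 and KRT16 at 81.2% of 1282. KRT14 and KRT16 were closest, at 88.7% of 1389. Their longest identical run was 158 bases, against 59 for KRT17 and KRT14. Of all 50-base windows in the KRT17 transcripts, 17.9% occurred exactly in transcripts of other genes, against 17% for KRT14 and 0.0% for KRT9. The genes sharing most windows with KRT17 were genes without a symbol, not KRT14 or KRT16. For KRT14 it was KRT16 (7.99%). The stretches of 90 aligned coding bases where the 3 genes are most alike and least alike are printed because KRT14 is later read against KRT17; capitals mark the positions at which the 3 sequences are not all the same (5 positions in the most alike stretch, 33 in the least alike). The most alike stretch lies in exon 1 of each gene, at 41624162 to 41624251 in KRT17, 41586394 to 41586483 in KRT14 and 41612242 to 41612331 in KRT16. The least alike stretch runs from exon 1 into exon 2.
KRT17, most alike: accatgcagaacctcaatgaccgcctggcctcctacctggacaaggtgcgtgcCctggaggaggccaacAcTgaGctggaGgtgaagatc
KRT14, most alike: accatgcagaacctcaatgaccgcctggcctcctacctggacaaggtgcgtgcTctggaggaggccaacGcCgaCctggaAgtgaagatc
KRT16, most alike: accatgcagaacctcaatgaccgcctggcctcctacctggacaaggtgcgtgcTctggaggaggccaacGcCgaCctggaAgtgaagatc
KRT17, least alike: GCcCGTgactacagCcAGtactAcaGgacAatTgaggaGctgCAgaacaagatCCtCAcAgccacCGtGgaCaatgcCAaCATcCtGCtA
KRT14, least alike: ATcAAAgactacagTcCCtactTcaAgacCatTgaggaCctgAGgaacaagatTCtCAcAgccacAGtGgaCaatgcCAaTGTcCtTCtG
KRT16, least alike: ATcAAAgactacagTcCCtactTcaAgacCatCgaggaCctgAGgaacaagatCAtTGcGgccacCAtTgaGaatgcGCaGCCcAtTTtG

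KRT9 shares no such windows with other genes, and of the members that moved most it is the one with an entry in the RefSeq promoter table used (GRCh38.p14, entries for 3 of the 10 members). The 250 bases before its annotated start, chr17:41572060-41572309 on the minus strand, are printed with the single match to GGGCGG (on either strand), the core of the Sp1 site, in capitals; the match starts 169 bases before the gene start.
KRT9, upstream: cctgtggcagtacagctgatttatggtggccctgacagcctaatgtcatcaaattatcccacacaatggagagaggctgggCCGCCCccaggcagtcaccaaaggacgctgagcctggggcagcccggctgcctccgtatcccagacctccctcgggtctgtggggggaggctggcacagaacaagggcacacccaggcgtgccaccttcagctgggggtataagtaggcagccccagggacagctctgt
GGGCGG was found in 42.6% of the 35116 promoters of the table over the same 250 bases. Neither strand held the exact TATA box letters TATAAA, which 10.7% of all promoters held. The search allowed no variants, and the printed sequence holds TATAAG, different in the last letter only, near its end. The AP-1 element, searched as TGACTCA, was not in this window and was in 4.20% of all promoters. The interferon gamma activated site TTCNNNGAA was not there either and was in 6.57%.

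In cells without doxorubicin the simple epithelial keratins were the most abundant members. Levels between genes are compared as TPM, which corrects for gene length, taken here as all annotated exons of a gene together. This was 6881 bases for KRT8, 3999 for KRT7, 3069 for KRT18 and 2336 for KRT19. It need not be the length of the transcripts present, so the order of genes in TPM depends on the annotation. In GFP cells KRT19 was highest at 531 ± 3.73 TPM (SD, n = 2), then KRT18 at 507 ± 2.04, KRT8 at 335 ± 6.78, KRT7 at 283 ± 1.34 and KRT81 at 32.1 ± 0.663. KRT15 at 2.82 ± 0.413 and KRT17 at 1.33 ± 0.537 TPM were far below these, and KRT14, KRT5 and KRT9 were at 0.233, 0.0206 and 0 TPM. By CPM, which takes no account of length, KRT8 was highest in GFP cells (684), then KRT18 (462), KRT19 (368) and KRT7 (336). In transient control cells KRT18 (665 ± 29.5 TPM) and KRT8 (520 ± 95) were highest, followed by KRT7 (339 ± 32.8) and KRT19 (298 ± 30.9), and the last pair did not differ beyond their spread; KRT17, KRT14, KRT9 and KRT5 were at 0 counts in both libraries. Of the 44 other keratins, 21 had more than 3 counts in at least 1 inducible library and 3 in at least 1 transient library.

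In TPM the order was different in ZMYND8 cells. Without doxorubicin KRT18 was at 354 ± 29.9 TPM and KRT8 at 306 ± 10.3, KRT19 had dropped to the third place at 265 ± 12.8, and KRT17 was at 168 ± 2.06, just above KRT7 at 163 ± 3.47. By CPM KRT17 (149) was below KRT7 (193) in these cells. After 48 h of doxorubicin KRT17 was the highest member, at 784 ± 1.87 TPM against 372 ± 4.12 for KRT18 and 293 ± 3.02 for KRT8. KRT17 was also highest there by CPM, at 657 against 564 for KRT8. KRT17 took 0.0881% and 0.0493% of all keratin TPM in the GFP libraries without doxorubicin, 11.4% and 11.2% in the ZMYND8 libraries, and 36.9% and 36.5% in the ZMYND8 libraries with 48 h of doxorubicin. Type I over type II keratin TPM was 1.32 and 1.34 in GFP cells, 1.35 and 1.43 in ZMYND8 cells, 1.38 and 1.39 in GFP cells at 48 h, and 2.17 and 2.12 in ZMYND8 cells at 48 h. The values for ZMYND8 cells at 48 h lay above those of all other libraries. With 2 libraries against 2, an exact two-sided permutation test cannot give a p below 0.333. The shares and ratios in TPM rest on the annotated gene lengths.

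**Figure D1:**
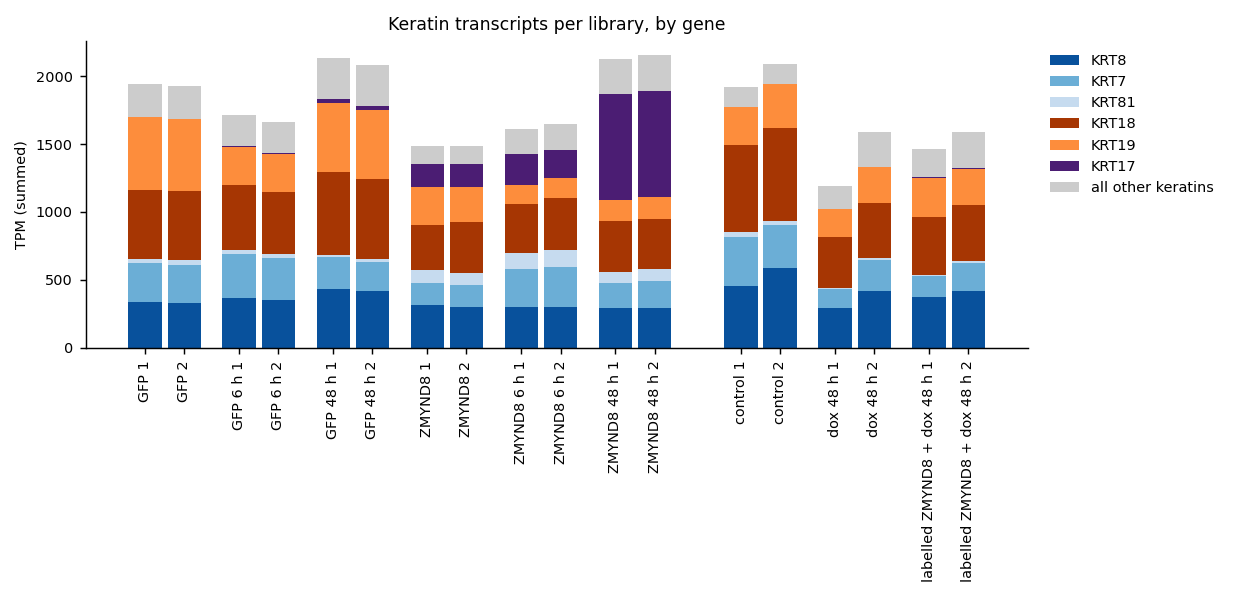
Stacked TPM (y axis) of keratin genes in each of the 18 libraries (x axis; number = replicate; dox = doxorubicin), with blues for type II genes, oranges and purple for type I genes and grey for all other keratins. KRT17 (purple) is a sliver in GFP and transient libraries and 36.9% and 36.5% of the bar in the ZMYND8 libraries at 48 h.

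Differences between conditions are given on the CPM scale (counts relative to library size, scaled by edgeR's TMM factors) and tested with edgeR's quasi-likelihood test, a call being a Benjamini-Hochberg adjusted p of at most 0.05 over all genes tested. The inducible fit tested 18801 genes, 9 members among them, and the transient fit 15697 genes, 7 members among them. KRT5 passed the filter on low counts in neither, and KRT9 and KRT14 did not in the transient fit. KRT9 and KRT14 in the inducible fit, and KRT17 in the transient fit, passed through the groups in which they are high, so their being tested already depends on a difference; their values are given without a test and they are left out of the counts of calls. All 6 inducible groups share the fit, and comparisons that have a group in common are not independent.

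**Figure D2:**
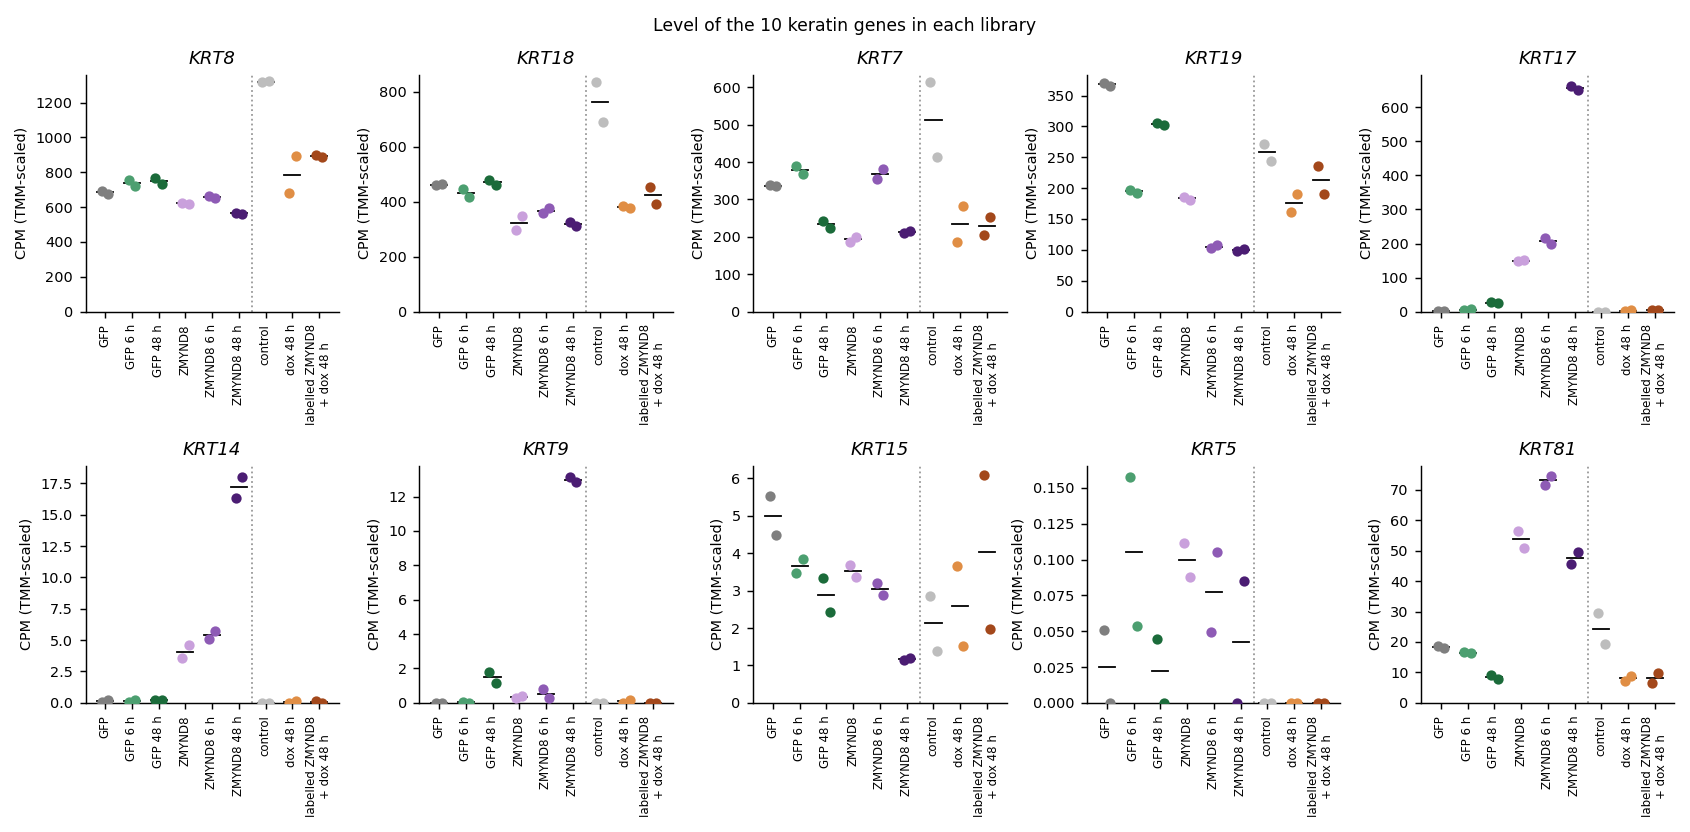
CPM (y axis, from 0, own scale in each panel) of each of the 10 keratin genes in every library of the 9 groups (x axis; dotted line divides inducible from transient libraries); points are libraries and bars group means. KRT17, KRT14 and KRT9 are highest in both ZMYND8 48 h libraries, while KRT5 stays at 0.158 CPM or below.

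KRT17 was higher in ZMYND8 cells than in GFP cells and rose with doxorubicin in both. In GFP cells it was at 1.52 and 0.844 CPM without doxorubicin (30 and 16 counts), 5.20 and 6.42 at 6 h, and 27.0 and 24.9 at 48 h. In ZMYND8 cells it was at 148 and 151 CPM without doxorubicin, 215 and 198 at 6 h, and 663 and 651 at 48 h. No libraries of neighbouring conditions overlapped, and the lowest ZMYND8 library stood above every GFP library. Between lines without doxorubicin KRT17 was 125-fold higher in ZMYND8 cells (log2 difference 6.97, SE 0.109, adjusted p = 1.3e-26). Doxorubicin raised it 4.86-fold at 6 h (log2 2.28, SE 0.212, adjusted p = 7.2e-10) and 21.7-fold at 48 h (log2 4.44, SE 0.147, adjusted p = 1.3e-19) in GFP cells. In ZMYND8 cells the rise was 1.38-fold at 6 h (adjusted p = 1.6e-08) and 4.4-fold at 48 h (log2 2.14, SE 0.0486, adjusted p = 8.5e-23).

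The fold effect of doxorubicin on KRT17 was thus smaller in ZMYND8 cells, with a difference of -2.30 on the log2 scale at 48 h (SE 0.187, adjusted p = 3.5e-10) and -1.81 at 6 h (SE 0.223, adjusted p = 2.4e-06). On the linear scale the order is opposite, since the group mean went from 149 to 657 CPM in ZMYND8 cells and from 1.18 to 26.0 in GFP cells. After 48 h of doxorubicin KRT17 remained 25.3-fold higher in ZMYND8 cells (adjusted p = 1.8e-28).

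KRT14 was near the limit of detection in GFP cells and higher in ZMYND8 cells. It had 2 to 6 counts in each of the 6 GFP libraries, which is 0.101 to 0.266 CPM. In ZMYND8 cells it was at 3.57 and 4.6 CPM without doxorubicin, 5.08 and 5.73 at 6 h, and 16.3 and 18 at 48 h. Every ZMYND8 library was above every GFP library. The fitted difference between lines was 25.6-fold without doxorubicin and 70.5-fold at 48 h, and the level in ZMYND8 cells was 4.16-fold higher at 48 h than without doxorubicin. These are descriptions. With 6 and 5 counts at 48 h against 2 and 4 without doxorubicin, no difference could be measured in GFP cells.

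KRT14 counts kept a narrow ratio to KRT17 counts in ZMYND8 cells, from 2.36% to 3.05% over the 6 libraries, while in the GFP libraries, with 2 to 6 KRT14 counts each, it was 6.67% and 25% without doxorubicin, 2.02% and 3.33% at 6 h and 0.985% and 0.845% at 48 h. Reads with more than 1 best place were not counted, but reads of one paralog can be placed on the other where they differ by few bases, as in the most alike stretch shown above; the part of this in the KRT14 values was not tested. KRT16, the neighbour between them, was low throughout: 24 and 29 counts in ZMYND8 cells without doxorubicin and 87 and 71 at 48 h, against 1 to 12 counts in the GFP libraries. Its pseudogene KRT16P6 went from 0 counts in GFP cells to 32 and 60 in ZMYND8 cells, at least 14.2-fold more against 3 counts per library.

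KRT9 was highest at 48 h of doxorubicin in both lines. It was at 0 counts in both GFP libraries without doxorubicin, 1 and 0 at 6 h, and 41 and 28 at 48 h, which is at least 9.66-fold higher at 48 h against a floor of 3 counts per library; this value was among those known when the list was made, and none of the KRT9 values carries a test. In ZMYND8 cells it had 5 and 9 counts without doxorubicin, 16 and 5 at 6 h, and 323 and 302 at 48 h, or 0.279 and 0.394, 0.789 and 0.263, and 13.1 and 12.8 CPM. Libraries without doxorubicin and at 6 h overlapped, and those at 48 h stood clear of both. The level at 48 h in ZMYND8 cells was 37.3-fold that without doxorubicin. Between lines without doxorubicin the ZMYND8 cells held at least 2.17 times more KRT9, and at 48 h 8.67-fold more. At 6 h the ratio of counts between lines was 20.1, with a 95% exact counting interval from 3.24 to 833, since GFP cells had 1 count in all.

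KRT5, the usual type II partner of KRT14, did not appear with it. It had at most 3 counts in every inducible library and 0 in every transient library, where 3 counts correspond to 0.114 to 0.572 CPM. No fold change can be given for it.

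**Figure D3:**
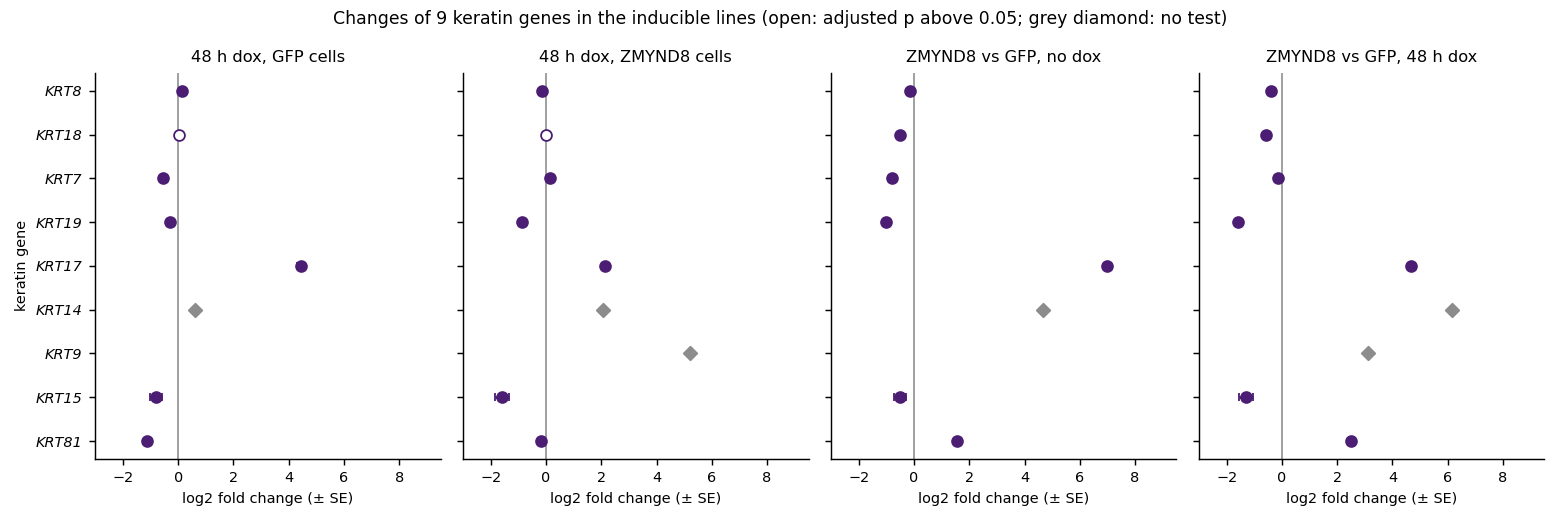
Log2 fold change (x axis; bars ± SE) of 9 keratin genes in the inducible fit (y axis) for 48 h of doxorubicin (dox) in each line and for ZMYND8 against GFP cells without and with doxorubicin; open points have an adjusted p above 0.05, and grey diamonds are values with no test. KRT17 lies at 4.44, 2.14, 6.97 and 4.66; KRT9 has no point where a group is at 0 counts.

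The simple epithelial keratins changed little or were lower in ZMYND8 cells. KRT8 was at 694 and 673 CPM in GFP cells and 626 and 619 in ZMYND8 cells, a difference of -0.14 on the log2 scale (SE 0.0382, adjusted p = 0.0033), and after 48 h of doxorubicin it was at 768 and 732 in GFP cells and 566 and 562 in ZMYND8 cells (log2 -0.41, adjusted p = 3.9e-10). Its partner KRT18 was 1.44-fold lower in ZMYND8 than in GFP cells (321 ± 35.4 against 462 ± 1.35 CPM, adjusted p = 1.6e-09) and was not called with 48 h of doxorubicin in either line (log2 0.03 and -0.01, adjusted p = 0.64 and 0.85). KRT8 and KRT18 overlap by 525 exon bases on opposite strands, 17.1% of the KRT18 exon length.

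KRT19 fell in both lines at both times. It was at 371 and 366 CPM in GFP cells, 196 and 193 at 6 h and 305 and 302 at 48 h, so that it was lowest at the early time. In ZMYND8 cells it was at 186 and 180 CPM without doxorubicin, 103 and 107 at 6 h and 98.6 and 102 at 48 h, with no return. None of the GFP groups overlapped another. In ZMYND8 cells the libraries at 6 h (103 and 107) stood just above those at 48 h (98.6 and 102). At 6 h it fell by 0.92 on the log2 scale in GFP cells (adjusted p = 1.1e-16) and by 0.80 in ZMYND8 cells (adjusted p = 2.4e-14), and the difference between these was not called (log2 0.12, SE 0.0573, adjusted p = 0.18). At 48 h it fell by 0.28 in GFP cells (adjusted p = 3.4e-07) and by 0.87 in ZMYND8 cells (adjusted p = 4.2e-16), and the difference of -0.59 was called (SE 0.056, adjusted p = 5.3e-09). Without doxorubicin KRT19 was 2.01-fold lower in ZMYND8 than in GFP cells (adjusted p = 5.4e-18), and at 48 h 3.03-fold lower (adjusted p = 7e-22). Scaled to total counts, the KRT19 value for GFP cells at 48 h became -0.03 (adjusted p = 0.45), as that scaling shifted the median of all genes by 0.274.

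KRT7 responded early in ZMYND8 cells. It was at 338 and 335 CPM in GFP cells without doxorubicin, 390 and 367 at 6 h and 243 and 223 at 48 h. In ZMYND8 cells it went from 187 and 199 CPM to 356 and 381 at 6 h and 211 and 215 at 48 h. The rise at 6 h was 1.91-fold in ZMYND8 cells (log2 0.93, SE 0.0475, adjusted p = 1.4e-14) against 1.13-fold in GFP cells (log2 0.17, adjusted p = 0.0032; not called without GFP 6 h replicate 1, at 0.13), a difference of 0.76 (SE 0.0662, adjusted p = 7.8e-09). At 6 h the level in both lines overlapped (log2 -0.04, adjusted p = 0.51), although without doxorubicin KRT7 was 1.74-fold lower in ZMYND8 cells (adjusted p = 4.6e-14). At 48 h it fell by 0.53 in GFP cells (adjusted p = 1.4e-10) and was 0.14 higher in ZMYND8 cells (adjusted p = 0.013; not called without ZMYND8 replicate 1, at 0.07, or without ZMYND8 48 h replicate 2, at 0.12), again a called difference (log2 0.67, adjusted p = 1.4e-08).

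KRT15, at 5.53 and 4.48 CPM in GFP cells and 3.69 and 3.37 in ZMYND8 cells, was lower after 48 h of doxorubicin. Its difference between lines (log2 -0.51, adjusted p = 0.039) was called in 1 of the 4 fits that left out 1 library and not by DESeq2 (adjusted p = 0.13). At 48 h it was at 3.33 and 2.44 CPM in GFP cells and 1.14 and 1.19 in ZMYND8 cells. The fall was 1.74-fold in GFP cells (log2 -0.80, SE 0.21, adjusted p = 0.0017) and 3.01-fold in ZMYND8 cells (log2 -1.59, SE 0.246, adjusted p = 3.1e-06); the difference between them was not called (log2 -0.79, SE 0.326, adjusted p = 0.072).

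KRT81 differed between lines in the other direction from its neighbours KRT7 and KRT8 on chromosome 12. It was at 18.6 and 18.1 CPM in GFP cells, 16.7 and 16.3 at 6 h and 9.05 and 7.87 at 48 h, and at 56.5 and 51.0, 71.7 and 74.5, and 45.7 and 49.6 CPM in ZMYND8 cells. Every ZMYND8 library stood above every GFP library. Without doxorubicin KRT81 was 2.92-fold higher in ZMYND8 cells (log2 1.55, SE 0.077, adjusted p = 1.1e-15), and at 48 h 5.64-fold (log2 2.50, SE 0.0847, adjusted p = 4.1e-19). Doxorubicin for 48 h lowered it 2.17-fold in GFP cells (log2 -1.12, adjusted p = 1.2e-10) and 1.13-fold in ZMYND8 cells (log2 -0.17, SE 0.0664, adjusted p = 0.028); the difference was 0.95 (SE 0.119, adjusted p = 5.6e-07). The small fall in ZMYND8 cells was not called without ZMYND8 replicate 1 or ZMYND8 48 h replicate 1 (-0.12 in both) nor by DESeq2 (log2 -0.15, adjusted p = 0.15), and with scaling to total counts it turned to 0.04 (adjusted p = 0.67).

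KRT81 is hard to separate from its paralogs: 44.6% of its 50-base windows occurred in other genes, 38.4% in KRT86, a further hair keratin. Between lines without doxorubicin KRT86 did not follow it. KRT86 had 181 and 171 counts in GFP cells and 48 and 77 in ZMYND8 cells, where KRT81 had 368 and 343 and then 1012 and 1166. KRT86 was 2.98-fold lower in ZMYND8 cells (log2 -1.57, SE 0.203, adjusted p = 1.7e-07) while KRT81 was higher, so that KRT86 counts were 49.2% and 49.8% of KRT81 counts in GFP cells and 4.74% and 6.60% in ZMYND8 cells. In GFP cells both were lower at 48 h of doxorubicin, with KRT86 down 3.03-fold (adjusted p = 8.2e-08). Between lines KRT86 was still lower in ZMYND8 cells at 6 h (log2 -1.27, adjusted p = 8.4e-06) but not at 48 h (log2 -0.01, adjusted p = 0.98). In the transient experiment KRT86 was lower, as KRT81 was, under the ZMYND8 plus doxorubicin label against control (log2 -2.55, adjusted p = 0.029). With doxorubicin alone it was not called (log2 -1.78, adjusted p = 0.077).

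**Figure D4:**
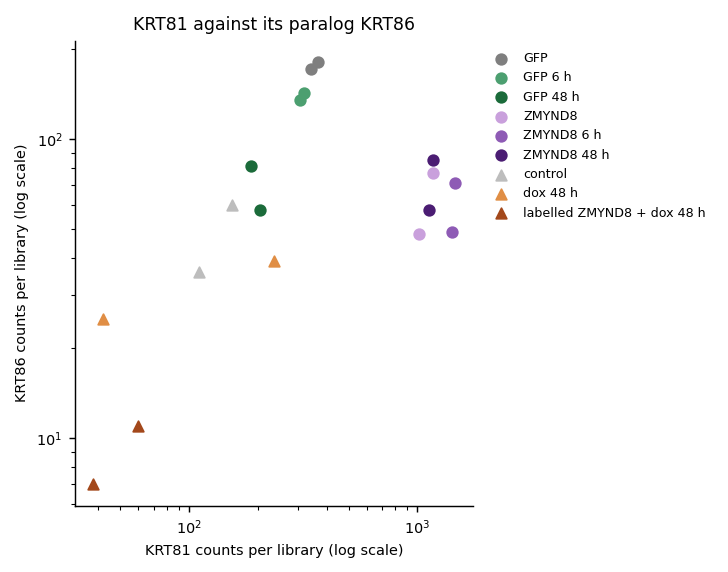
Counts per library of KRT81 (x axis, log scale) and KRT86 (y axis, log scale) in all 18 libraries; circles are inducible and triangles transient libraries (dox = doxorubicin), and library sizes differ. The 6 ZMYND8 libraries lie at 1012 to 1455 KRT81 counts and 48 to 85 KRT86 counts, to the right of and below the GFP libraries without doxorubicin.

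Leaving out KRT9 and KRT14, 7 members could be counted, and their calls have to be read against a background in which 40.8% to 64.2% of all genes were called for a main effect. Between lines without doxorubicin 7 of 7 were called (2 higher, 5 lower in ZMYND8 cells), where 58.3% of all genes were (28.7% higher, 29.5% lower). At 6 h these were 5 of 7 (2 higher, 3 lower) against 55.5% (28.9% higher, 26.6% lower), and at 48 h 7 of 7 (2 higher, 5 lower) against 60.0% (28.4% higher, 31.6% lower). In GFP cells doxorubicin moved 4 of 7 at 6 h (3 higher, 1 lower) where 47.9% of all genes were called (22.1% higher, 25.8% lower). At 48 h it moved 6 of 7 (2 higher, 4 lower), where 64.2% were called (32.4% higher, 31.8% lower). In ZMYND8 cells these were 5 of 7 (4 higher, 1 lower) against 40.8% (21.8% higher, 19.0% lower), and 6 of 7 (2 higher, 4 lower) against 62.3% (31.6% higher, 30.8% lower). The effect of doxorubicin differed between lines for 4 of 7 at 6 h (3 higher, 1 lower), beside 13.4% of all genes (7.86% higher, 5.52% lower), and for 5 of 7 at 48 h (2 higher, 3 lower), beside 28.6% (12.7% higher, 15.8% lower). The median log2 difference of these 7 was -0.51 between lines without doxorubicin and -0.28 and -0.14 for 48 h of doxorubicin in GFP and ZMYND8 cells, beside 0, 0.0283 and 0.0457 over all genes.

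The transient experiment gave a partly different picture, with the major keratins lower after doxorubicin. KRT18 was at 836 and 690 CPM in control cells and at 386 and 378 with doxorubicin, close to 2-fold lower (log2 -1.0, SE 0.208, adjusted p = 0.024). KRT7 went from 613 and 414 to 187 and 283 CPM (log2 -1.13, SE 0.268, adjusted p = 0.038) and KRT81 from 29.4 and 19.3 to 7.29 and 8.96 CPM (log2 -1.56, SE 0.313, adjusted p = 0.02). The groups did not overlap for these 3 genes. KRT8 at 1318 and 1323 against 682 and 891 CPM (log2 -0.75, adjusted p = 0.07) and KRT19 at 272 and 244 against 162 and 191 CPM (log2 -0.55, adjusted p = 0.15) were not called, nor was KRT15 (adjusted p = 0.93). KRT8 was called with a replicate block (adjusted p = 0.0097), by DESeq2 (adjusted p = 0.012) and with no filter on low counts (adjusted p = 0.035). Leaving out KRT17, 3 of 6 members were called, all lower, beside 5.13% of all genes (2.98% higher, 2.15% lower). Of the calls of KRT7, KRT18 and KRT81, each held in 1 of the 4 fits that left out 1 library; without control replicate 1, for instance, their values were -0.83, -0.87 and -1.24.

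KRT17 was at 0 and 0 counts in transient control cells and at 6 and 113 counts with doxorubicin, at least 4.89-fold higher against 3 counts per library, and at least 1.90-fold from replicate 1 alone. Under the ZMYND8 plus doxorubicin label it had 32 and 30 counts, at least 9.44-fold above control. Both values are descriptions. KRT9 had 5 counts in the deep doxorubicin library and 0 in the other 5, and KRT14 3 counts there and 1 in a library labelled ZMYND8 plus doxorubicin, so that no fold is given.

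In the libraries labelled ZMYND8 plus doxorubicin, KRT18 (454 and 393 CPM, log2 -0.85 against control, adjusted p = 0.035), KRT7 (206 and 252 CPM, log2 -1.16, adjusted p = 0.028) and KRT81 (6.43 and 9.85 CPM, log2 -1.58, adjusted p = 0.018) were lower than in control cells. KRT8 was not called (log2 -0.56, adjusted p = 0.14) but was with a replicate block (adjusted p = 0.034). Leaving out KRT17, 3 of 6 members were called, all lower, beside 6.82% of all genes (3.85% higher, 2.97% lower). The calls of KRT7 and KRT18 held in 1, and that of KRT81 in 2, of the 4 fits that left out 1 library. Against doxorubicin alone edgeR called no member and 0% of all genes; at an unadjusted p under 0.05 there were 0 members and 54 genes, and DESeq2 called 0 genes. The largest member differences were 0.78 for KRT15 (SE 0.615) and KRT17 (SE 0.542). Replicate 2 of each group was nearly the same as that of the other (1.39 chi-square units for each degree of freedom). Replicates differed by 17.7 such units with doxorubicin alone and by 10.7 under the ZMYND8 label. Few calls could arise from such libraries, so their absence is no measure of a ZMYND8 effect. Both doxorubicin groups are set against the same control libraries. KRT7-AS, an antisense gene sharing 282 exon bases with KRT7, had 26.9% to 34.2% of the KRT7 counts in the transient libraries and 4.08% to 5.66% in the inducible libraries. Reads of the pair cannot be told apart without strand, and their part in the KRT7 values was not tested. Whether strand was kept alike in both experiments was not tested either. Levels of genes that overlap on opposite strands (KRT7, KRT8 and KRT18) may therefore not be alike between the experiments.

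The other keratins that could be tested were few. KRT80, KRT86, KRT10 and KRT16 passed the filter in the inducible fit, 4 of 44. KRT80, a type II keratin, was 3.14-fold lower in ZMYND8 than in GFP cells (68.7 ± 2.03 against 216 ± 0.0902 CPM, adjusted p = 4.5e-21) and rose with 48 h of doxorubicin in ZMYND8 cells (log2 0.86, SE 0.047, adjusted p = 7.8e-15). KRT10, a suprabasal epidermal keratin, rose by 0.46 there (SE 0.0584, adjusted p = 1.4e-07). Of keratin pseudogenes 4 of 150 were tested. KRT16P6, with 0 or 1 counts in every GFP library, passed the filter through the ZMYND8 groups in which it is high, so calls of pseudogenes are not counted.

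Desmosomes and hemidesmosomes anchor keratin filaments at the membrane. Of the desmosome, hemidesmosome and linker list (21 genes, 19 tested) 12 were lower with 48 h of doxorubicin in GFP cells and 10 in ZMYND8 cells. Of all genes 31.8% and 30.8% were lower there. COL17A1 and PKP2 were higher in both lines, and JUP and PPL in ZMYND8 cells only (32.4% and 31.6% of all genes were higher). DSG1, DSG4, DSC1 and DSC3 were higher at 48 h in both lines but had an average log2 CPM of only -1.97 to -1.18. Their passing the filter may depend on the groups in which they are high, so they are left out of the higher genes. The log2 effect of doxorubicin differed between lines for 9 of the listed genes at 6 h, in each case higher in ZMYND8 cells. Of all genes 7.86% had a higher and 5.52% a lower effect. At 48 h the effect was higher for 4 and lower for 4 (12.7% and 15.8% of all genes). A higher effect is not a higher level: DSC2, with a difference in effect of 0.79 at 6 h, was lower in ZMYND8 cells then (log2 -2.13). With 48 h of doxorubicin the integrin chains ITGA6 (log2 -1.69 and -1.92) and ITGB4 (log2 -1.45 and -1.34) fell in GFP and ZMYND8 cells. These chains form the hemidesmosome receptor for laminin. The hemidesmosome collagen COL17A1 rose (log2 1.30 and 1.75). Between lines without doxorubicin 12 were lower and 3 higher in ZMYND8 cells (29.5% and 28.7% of all genes), with the desmosomal cadherin DSC2 at log2 -2.93 (SE 0.156), plakoglobin JUP at -1.37 (SE 0.0596) and the linker PLEC at 0.74 (SE 0.0456).

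Among other intermediate filament genes (16, of which 12 were tested) 5 were lower with 48 h of doxorubicin in GFP cells and 5 in ZMYND8 cells. Of all genes 31.8% and 30.8% were lower there. LMNB2, GFAP and SYNM were higher in GFP cells, and BFSP1, SYNM and SYNC in ZMYND8 cells (32.4% and 31.6% of all genes). INA and PRPH, at an average log2 CPM of -1.78 and -1.43, are left out of the higher genes for the reason given for DSG1. Vimentin, the mesenchymal filament, fell by 1.06 on the log2 scale in GFP cells (SE 0.045, adjusted p = 3e-17). Of 19 epithelial transcription factors and repressors of the epithelial state, 16 were tested. At 48 h 5 were lower in GFP cells and 5 in ZMYND8 cells (31.8% and 30.8% of all genes). SNAI1, KLF4, KLF5, GRHL1, ELF3, ESRP2 and TFAP2A were higher in both lines, and TP63 in GFP cells only (32.4% and 31.6% of all genes). GRHL2, OVOL2 and ESRP1, at an average log2 CPM of -1.84 to -1.13, are left out of the higher genes for the same reason. The repressor ZEB1 fell in GFP cells (log2 -1.15) and ZMYND8 cells (log2 -0.84), whereas SNAI1, which also represses epithelial genes, rose (log2 1.93 and 1.64). KLF4, a factor of epithelial differentiation, was higher in ZMYND8 than in GFP cells (log2 2.09, SE 0.0445) and EHF, an epithelial ETS factor, lower (log2 -2.10, SE 0.0778).

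Markers of other cell types that could carry these keratins were checked. Of 10 stratified keratinocyte markers 4 had 3 counts or fewer in every inducible library and 7 in every transient library (in both: KRT1, SPRR1A, SPRR1B and KLK5), and their summed level was 51.2 and 51.4 CPM in GFP cells, 85.8 and 86.2 at 6 h and 64.0 and 65.6 at 48 h, and in ZMYND8 cells 44.6 and 44.8, 66.1 and 71.4, and 63.0 and 64.4. KRT10 made up most of it in GFP cells without doxorubicin (37.3 CPM) and in ZMYND8 cells at 48 h (57.4 CPM). Filaggrin (FLG), a further marker of this list, was lower in ZMYND8 than in GFP cells (log2 -2.70 without doxorubicin, -2.79 at 6 h and -2.12 at 48 h). KRT10 was higher in ZMYND8 cells at each of these times. Both FLG and KRT10 rose at 6 h in both lines. The part of keratinocyte-like cells in the keratin values was not tested. The summed luminal list (12 markers) was 139 to 140 CPM in GFP cells and 178 to 189 in ZMYND8 cells without doxorubicin, with EPCAM lower (log2 -1.78) and the luminal secretory gene AGR2 higher (log2 2.81) in ZMYND8 cells. E-cadherin (CDH1), the adhesion molecule of epithelia, was at 0.721 CPM in GFP cells, 4.16 in ZMYND8 cells and 10.7 and 20.9 after 48 h, higher by 3.88 and 2.31 on the log2 scale with doxorubicin. All 6 markers of the mesenchymal MDA-MB-231 state were lower at 48 h in both lines (31.8% and 30.8% of all genes). Between lines without doxorubicin 2 of the 6 were higher in ZMYND8 cells, AXL (log2 0.97) and MSN (log2 0.54), and 3 lower, among them the matrix protein gene SPARC (log2 -7.17, SE 0.114, adjusted p = 1.7e-26). The summed fibroblast list (6 markers) was 30.0 to 33.7 CPM in GFP cells and 12.0 to 17.7 in ZMYND8 cells. In bulk RNA, fewer cells expressing a keratin and less of it per cell cannot be told apart.

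Around KRT17 the pattern was not shared by all neighbours. Of the 36 genes starting within 250 kb of its start, a window chosen after the values were seen, 13 were tested. KRT16, KRT14 and KRT9, starting 8.9, 37.9 and 52.8 kb downstream, had their highest mean in ZMYND8 cells at 48 h, as did KRT17, EIF1 and KLHL11. KRT19 and KRT15, at 96.5 and 102.3 kb, had their lowest mean there. On the other side EIF1, a translation initiation factor, was at 498 CPM in GFP cells and 812 in ZMYND8 cells at 48 h, KLHL11 at 9.55 and 21.6, JUP at 164 and 73.2, P3H4 at 29.8 and 9.48, and NT5C3B at 60.5 and 60.0.

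**Figure D5:**
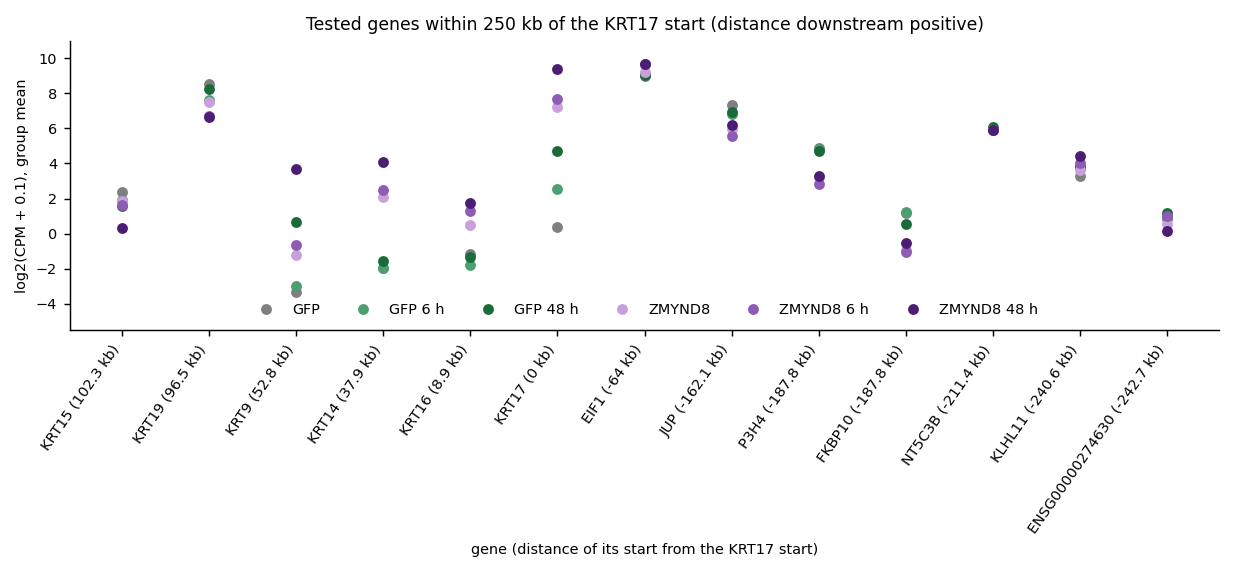
Group mean log2(CPM + 0.1) (y axis) of the 13 tested genes within 250 kb of the KRT17 start in the 6 inducible groups (colours), ordered by position (x axis; distance in kb, positive downstream of KRT17); values compare groups within a gene, not genes. KRT17, KRT16, KRT14, KRT9, EIF1 and KLHL11 have their top point in ZMYND8 48 h, KRT19 and KRT15 their lowest.

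Over the 12 inducible libraries log2 CPM of KRT14 and KRT17 correlated at r = 0.93, KRT8 and KRT18 at r = 0.86, and KRT18 and KRT14 at r = -0.90; these libraries are pairs from 6 conditions, so the values are descriptions. The genes with the most similar profile over the 6 condition means (12358 or 12359 genes with an average log2 CPM of at least 1) were MT-ATP8 and ZNF273 for KRT17 (r = 0.9973 and 0.9970), UBN2 and AKR1E2 for KRT14 (0.9980 and 0.9961), JOSD1 and DHX58 for KRT9 (0.9973 and 0.9964), and HERC4 and PRDX4 for KRT81 (0.9973 and 0.9953). For KRT19 they were MYO18A and SCRN1 (0.9981 and 0.9937), for KRT15 HSD17B4 and TCAF1 (0.9994 and 0.9970), for KRT7 ZNF703 and TOX-DT (0.9925 and 0.9713), for KRT8 KDM2B and TRAF3 (0.9920 and 0.9887), and for KRT18 PRCP and NRM (0.9935 and 0.9924).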

How the data were processed

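Counts per gene were deposited for 18 libraries in a table for each experiment. Per the file headers, the authors counted fragments over GENCODE 31 exons with featureCounts 1.6.4 (paired, reverse strand setting, reads with several best places left out). The submitters' processing notes name hg38, Trim Galore and HISAT2 before it and DESeq2 after it; the study's methods name TopHat and cuffdiff. The library kit as labelled does not mark strand. Both tables hold raw counts, the unit used here, and 0 columns belong to other samples.

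Members were matched by symbol. They and the gene lists were chosen with earlier results of these data known. R 4.3.3 with edgeR 4.0.16 was used (filterByExpr by group, TMM, quasi-likelihood test, 1 mean per group; transient and inducible libraries in separate fits and never compared by a test). The SE is the log2 fold change divided by the root of F. Adjusted p-values are Benjamini-Hochberg over all genes tested. TPM was computed from counts and summed exon length. A group whose libraries are all at 0 was set to 3 counts per library, a group at 1 to 3 counts got a 95% exact counting interval, and both cover counting error only. All 10 members are named; list genes are named if among the 2 with the largest change in either direction that were called at an average log2 CPM of at least 1. Alternatives were DESeq2 1.42.0, scaling to total counts, no filter, log2 cutoffs of 1 and 1.5, a replicate block, and leaving out each library. The fitting code was run on simulated counts with 200 genes changed, far fewer than were called in the inducible main comparisons. That run does not bear on the normalization or on the calls in these data. Shared windows and coding sequences came from GENCODE 44 transcripts (hg38).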

Additional observations from a re-analysis of the deposited data

Results flagged for a closer look

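The effect of doxorubicin differed between ZMYND8 and GFP cells by edgeR's interaction test for the following keratins, given as the log2 effect in ZMYND8 cells minus that in GFP cells. At 6 h the difference was 0.76 for KRT7, 0.60 for KRT81, 0.29 for KRT18 and -1.81 for KRT17. The KRT18 value was not called by DESeq2 (adjusted p = 0.13) or without GFP 6 h replicate 2 (log2 0.24) or ZMYND8 replicate 1 (log2 0.17). At 48 h it was 0.95 for KRT81, 0.67 for KRT7, -0.27 for KRT8, -0.59 for KRT19 and -2.30 for KRT17. With 2 libraries per group, no group was large enough for a check of single libraries that stand apart.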

How the results depend on the processing

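Most member values kept direction and side of the threshold: 96 of the values under DESeq2, 93 with scaling to total counts and 99 with no filter on low counts. These totals, and the total for the replicate block below, take in KRT9, KRT14 and transient KRT17. The values of those genes carry no test here, so the totals only describe the fits. Scaling to total counts shifted the median of all genes by 0.274 and 0.251 at 48 h of doxorubicin in GFP and ZMYND8 cells and by 0.148 and 0.138 in the transient comparisons with control, and under it KRT8, KRT18 and KRT81 at 48 h in ZMYND8 cells turned to 0.06, 0.19 and 0.04 and KRT8 at 6 h to -0.0031. DESeq2 gave 0.01 for KRT18 at 48 h in ZMYND8 cells. A log2 change of at least 1 was also asked for, again leaving out KRT9 and KRT14 in the inducible fit. In GFP cells KRT17 was then called at 6 h, and KRT17 and KRT81 at 48 h. In ZMYND8 cells no member was called at 6 h, and KRT17 and KRT15 were at 48 h. Between lines KRT17 and KRT81 were called at all times, KRT19 without doxorubicin and at 48 h, and KRT15 at 48 h. For the difference in effect only KRT17 was called at each time. Under the study's own cutoffs KRT81 in GFP cells at 48 h, KRT19 between lines without doxorubicin and KRT15 between lines at 48 h dropped out. The share of all genes at these cutoffs was not computed.

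Leaving out 1 library at a time, the members called, KRT17 included, ranged from 0 to 3 for transient doxorubicin, from 1 to 4 for the libraries labelled ZMYND8 plus doxorubicin against control, and from 2 to 4 at 6 h in GFP cells. Log2 values that changed sign in these fits ranged from -0.47 to 0.79 and from -0.10 to 1.51 for KRT15 in those transient comparisons. Between both transient doxorubicin groups they ranged from -0.31 to 0.28 for KRT7, -0.26 to 1.38 for KRT15 and -0.38 to 0.25 for KRT81. In GFP cells they ranged from -0.54 to 0.62 for KRT14 at 6 h and -0.01 to 0.05 for KRT18 at 48 h, and in ZMYND8 cells from -0.37 to 1.19 for KRT9 at 6 h and -0.14 to 0.10 for KRT18 at 48 h. Between lines at 6 h KRT7 ranged from -0.09 to 0.01, and the difference in effect from -0.23 to 0.93 for KRT14 and -2.82 to 0.63 for KRT9 at 6 h and from -0.16 to 0.08 for KRT18 at 48 h. The cause was not tested; each of these fits has fewer libraries.

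The replicate number is not said to mark a shared culture or day. Deviations of same-numbered libraries correlated at 0.211 to 0.41 in the transient and at -0.185 to 0.0708 in the inducible libraries. With a replicate block 100 values kept their side of the threshold and 2 gained a call (KRT8 in both transient comparisons with control, at -0.75 and -0.56), and no other call changed. In the 5 shallow transient libraries (5729294 to 5972396 counts) KRT5 and KRT9 were at 0 and KRT14 at 1 count in 1 library, so they could not be compared there. Leaving out 1 library also ended calls (log2 values) of KRT8 in GFP cells (0.08 without GFP 6 h replicate 1 and 0.10 without GFP replicate 2 at 6 h; 0.09 without GFP 48 h replicate 1 and 0.10 without GFP replicate 2 at 48 h), of KRT18 at 6 h in ZMYND8 cells (0.08 without ZMYND8 replicate 1) and of KRT7 between lines at 48 h (-0.07 and -0.12 without GFP 48 h or ZMYND8 48 h replicate 1). DESeq2 did not call KRT18 at 6 h in ZMYND8 cells (log2 0.18).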
